A study of Mus musculus with 2 samples.

Results

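The microRNA genes Mir193a, Mir193b, Mir365-1 and Mir365-2 form 2 paralogous clusters, Mir193b with Mir365-1 on chromosome 16 and Mir193a with Mir365-2 on chromosome 11. They were selected by gene name in the GENCODE annotation, and all 4 members were found among the 2202 microRNA genes of the files. Small RNA of under 30 nt was sequenced from gastrocnemius, the large calf muscle, of female B6CASTF1/J mice aged 2 months, the first-generation hybrids of C57BL/6J and CAST/EiJ. The study has 1 group of 2 libraries, labelled biological replicates 1 and 2, and no fat sample, treatment or second tissue. Both libraries carry the same donor code, although their labels number separate females. It is thus not certain that they come from separate animals, and the spread between them may not be that between animals. The members are therefore described in muscle alone.

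A microRNA gene is transcribed as a longer RNA that is cut to a hairpin and then to a short mature strand from either arm, 5p or 3p. The mature strand pairs with messenger RNAs, mainly through its seed, bases 2 to 8, and lowers their output. In mouse, the Mir193b and Mir365-1 cluster is known as enriched in brown fat. Raising it in muscle precursor cells has been reported to turn them toward brown fat cells, with the transcriptional corepressor Runx1t1 among its targets. A later knockout study reported that brown fat develops without it. Brown fat and skeletal muscle share precursor cells in the embryo, and the muscle microRNA miR-133 restrains the brown fat regulator Prdm16.

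The mature sequences are shown because they set which genes could receive reads of their own. All 4 genes were matched in the RefSeq microRNA table (GRCm38.p6, the assembly of mm10), which gives 7 distinct mature sequences for them. Each is printed 5′ to 3′, with the seed in capitals.

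miR-193a-3p: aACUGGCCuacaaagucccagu

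miR-193b-3p: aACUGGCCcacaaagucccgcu

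miR-193a-5p: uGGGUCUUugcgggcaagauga

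miR-193b-5p: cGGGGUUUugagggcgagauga

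miR-365-3p: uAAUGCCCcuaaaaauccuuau

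miR-365-1-5p: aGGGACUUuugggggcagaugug

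miR-365-2-5p: aGGGACUUucaggggcagcugug

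The 3p strands are the arms usually reported as loaded into the silencing complex for both families. miR-193a-3p and miR-193b-3p share the seed ACUGGCC and 19 of 22 bases. They differ, counted from the 5′ end with miR-193a-3p first, by U9C, A20G and G21C. Their 5p strands differ at 5 of 22 bases, 2 of them in the seed, so that GGGUCUU in Mir193a stands against GGGGUUU in Mir193b. miR-365-3p is identical in Mir365-1 and Mir365-2. The miR-365 5p strands share the seed GGGACUU and differ by U10C, G11A and A19C, with miR-365-1-5p first. No other gene among the 1738 mature sequences of the RefSeq table carried any of these seeds.

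The hairpins of the miR-365 pair show how far the identity reaches beyond the mature strand. The capitals mark the longest stretch that both hairpins hold, which is 27 nt long and includes miR-365-3p whole.

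Mir365-1: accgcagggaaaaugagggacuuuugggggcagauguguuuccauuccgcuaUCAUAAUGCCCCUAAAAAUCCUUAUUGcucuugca

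Mir365-2: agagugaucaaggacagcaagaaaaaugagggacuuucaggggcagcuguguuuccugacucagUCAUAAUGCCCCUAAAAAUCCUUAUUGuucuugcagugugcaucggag

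The longest stretch shared by the Mir193a and Mir193b hairpins was 10 nt. No stretch of 20 nt of either Mir193 gene occurred in another microRNA gene, while Mir365-1 and Mir365-2 shared such stretches with each other only. In these files, reads that aligned to several places are listed apart and belong to no gene. Such reads were 70.1% of the total of replicate 1 and 72.3% of that of replicate 2. A read that lies wholly within the shared 27 nt, as a read of miR-365-3p does, matches both Mir365 genes. How many of the reads set aside are of this kind was not tested. The counts below are per gene and not per arm.

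**Figure D1:**
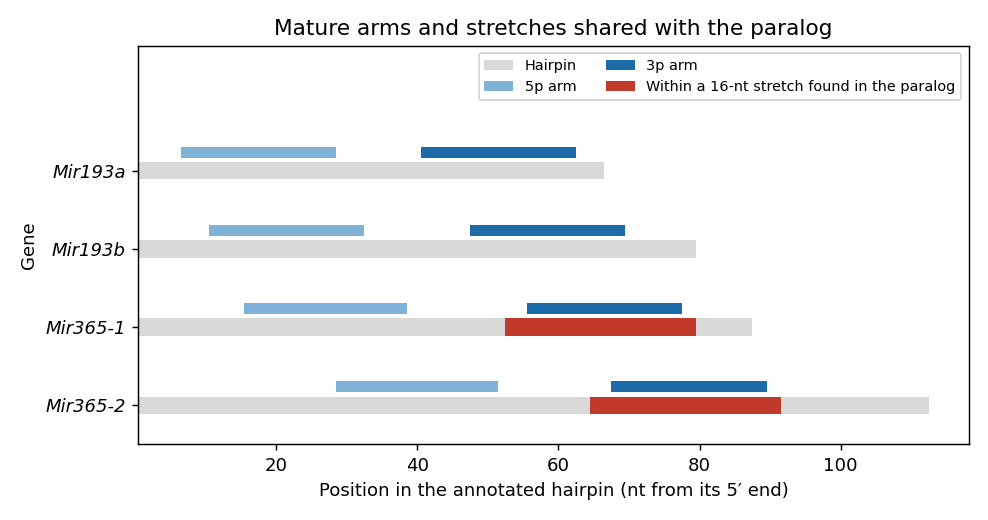
Map of the 4 annotated hairpins, with position in nt from the 5′ end on the x axis and 1 row per gene. Grey bars are hairpins, blue bars above them the 5p and 3p mature arms, and red bars the positions within a stretch of 16 nt that the paralog also holds. Red covers the whole 3p arm of Mir365-1 (hairpin positions 53 to 79) and of Mir365-2 (65 to 91), and no position of Mir193a or Mir193b.

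In mm10, Mir193b (ENSMUSG00000076972.2) lies on the plus strand of chromosome 16 at chr16:13449523-13449601. Mir365-1 (ENSMUSG00000065449.1) follows on the same strand at chr16:13453840-13453926, after a gap of 4238 bp. Both lie in introns of Gm15738, a gene annotated as antisense on the opposite strand, and in no other annotated gene. Mir193a (ENSMUSG00000065395.1) lies on the plus strand of chromosome 11 at chr11:79711969-79712034, and Mir365-2 (ENSMUSG00000065489.1) at chr11:79726400-79726511. Their gap is 14365 bp, and neither overlaps another annotated gene. No annotated gene lies wholly between the members of either cluster. The nearest protein-coding gene upstream is Mrtfb for the chromosome 16 cluster and Rab11fip4 for the chromosome 11 cluster.

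Own-strand reads in microRNA genes, the main values, numbered 1950204 and 2291821. They were scaled to a common total as CPM, and a single read equalled 0.513 and 0.436 CPM. Genes with at least 10 counts in each library, here called detected, numbered 278. The tissue label was checked on a list of 9 microRNAs of striated muscle, all of which were detected. Together they took 2.79% and 4.65% of counts. These shares leave out reads that match several genes, so they do not give the part of these microRNAs in the tissue. Mir206, a skeletal muscle microRNA, led the list with 52086 and 96104 counts. The 3 Mir9 and 3 Mir124a genes, markers of neural tissue, were at 0 counts in both libraries. For reads assigned to a single gene, 3 counts are the limit that 0 allows. Reads that match several copies of a microRNA are in no gene, so these zeros set no limit on the neural microRNAs themselves.

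Mir193b, the gene named for the brown fat cluster, was the most abundant of the 4. It had 497 counts in replicate 1, or 255 CPM (95% exact Clopper-Pearson interval 233 to 278). It had 277 counts in replicate 2, or 121 CPM (107 to 136). The intervals did not overlap, and replicate 1 was the higher library. The mean was 188 ± 94.7 CPM (SD, n = 2), and 123 of the 278 detected genes had a higher mean. Intervals cover counting error only, because each comes from the counts of 1 library. Amplified reads are not independent molecules, so the intervals may be too narrow even for that error.

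Mir193a, its paralog with the same 3p seed, was lower in both libraries. It had 103 counts or 52.8 CPM in replicate 1 (43.1 to 64.1). It had 130 counts or 56.7 CPM in replicate 2 (47.4 to 67.4). These intervals overlapped, and the mean was 54.8 ± 2.76 CPM (SD, n = 2), with 179 detected genes above it. The mean of the detected genes had a median of 123 CPM, which lay between the 2 Mir193 genes.

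The Mir365 genes, whose 3p strand is common to both, were near the lower limit. Mir365-2 had 9 counts in each library, or 4.61 CPM (2.11 to 8.76) and 3.93 CPM (1.80 to 7.45). Mir365-1 had 2 counts in each library, or 1.03 CPM (0.124 to 3.70) and 0.873 CPM (0.106 to 3.15). Mir365-1 was thus below the level of 3 counts, 1.54 and 1.31 CPM, in both libraries. Neither gene was detected by the count minimum. Of the 2202 genes, 1619 had no count in either library, so the few reads of both Mir365 genes lay above most of the annotation.

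**Figure D2:**
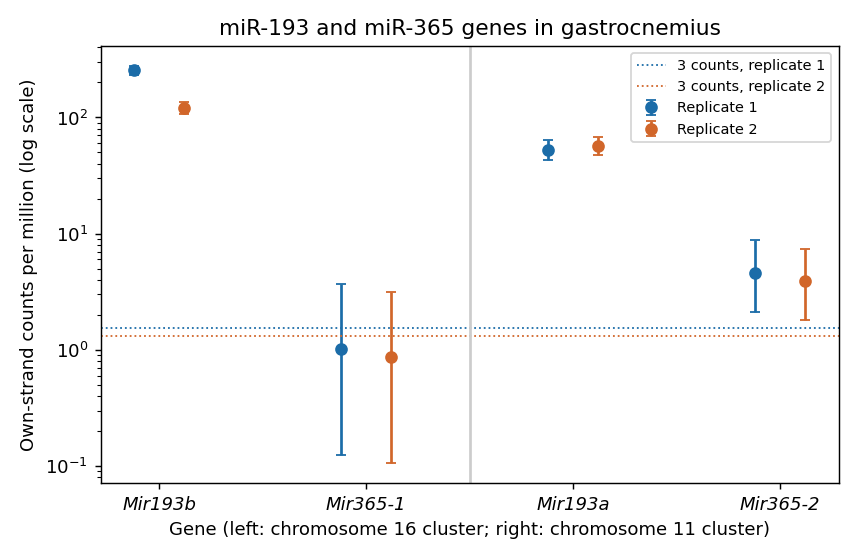
Own-strand CPM of the 4 genes on a log axis, for replicate 1 (blue) and replicate 2 (orange). Bars are exact 95% intervals for counting error and dotted lines mark 3 counts. Mir193b sits highest, at 255 and 121 CPM, and Mir365-1 lies under the dotted lines at 1.03 and 0.873 CPM.

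The order Mir193b, Mir193a, Mir365-2, Mir365-1 held in both libraries. The neighbours Mir365-2 and Mir365-1 had a count ratio of 4.50 in each library, with an exact binomial 95% interval of 0.931 to 42.8 that includes equal counts. Over both libraries together, 18 counts stood against 4, and the interval of 1.48 to 18.3 lay above equal counts. Pooling treats the reads of both libraries as draws from 1 sample, so this interval does not establish which gene is higher. Mir193a had 11.4 times the counts of its cluster partner Mir365-2 in replicate 1 (5.80 to 25.7) and 14.4 times in replicate 2 (7.38 to 32.3). Mir193b had 249 times the counts of its partner Mir365-1 in replicate 1 (68.4 to 2058) and 139 times in replicate 2 (38.0 to 1149). These last ratios rest on 2 counts of Mir365-1. Reads that match both Mir365 genes are in neither count, so ratios across the families compare the reads assigned to a gene and not microRNA levels.

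Among reads assigned to a gene, the chromosome 16 cluster exceeded the chromosome 11 cluster in both libraries, almost wholly through Mir193b. Reads that match both Mir365 genes, as the annotated miR-365-3p sequence does, are counted in neither cluster, so the order of the whole clusters is not known. In replicate 1 the chromosome 16 cluster held 499 counts, or 0.0256% of counts (0.0234 to 0.0279), against 112 counts, or 0.00574% (0.00473 to 0.00691). In replicate 2 it held 279 counts, or 0.0122% (0.0108 to 0.0137), against 139 counts, or 0.00607% (0.00510 to 0.00716). The mean shares were 0.0189% ± 0.00948 and 0.00590% ± 0.000228 (SD, n = 2 each). The share of the chromosome 16 cluster thus differed between the libraries, while the intervals of the chromosome 11 cluster overlapped.

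On assigned reads, the ratio of the clusters was 4.46 in replicate 1 (exact binomial 95% interval 3.62 to 5.52). It was 2.01 in replicate 2 (1.63 to 2.48). Of the counts of both clusters, Mir193b and Mir365-1 thus held 81.7% in replicate 1 and 66.7% in replicate 2. For the Mir193 paralogs alone the ratio was 4.83 (3.90 to 6.03) and 2.13 (1.72 to 2.65). Per base of annotated gene, the paralog ratios were 4.03 and 1.78, so Mir193b remained the higher gene on that scale. Mature strands of both genes are 22 nt long, and the plain counts are therefore the main scale.

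The proportions were then compared between the libraries for 5 pairs of genes or clusters, with two-sided Fisher's exact tests and Benjamini-Hochberg adjustment over the 5. The Mir193b to Mir193a ratio was 2.26 times as high in replicate 1 as in replicate 2 (95% interval 1.66 to 3.08, adjusted Fisher's exact p = 2.03e-07). The cluster ratio, on assigned reads only, differed 2.22-fold (1.65 to 2.99) with the same adjusted Fisher's exact p, 2.03e-07. The ratio of Mir193a to Mir365-2 in replicate 1 was 0.792 times that in replicate 2, with an interval of 0.268 to 2.35 (adjusted Fisher's exact p = 0.792). The remaining pairs, which include Mir365-1, had intervals of 0.129 to 24.9 for Mir193b over Mir365-1 and 0.0599 to 16.7 for Mir365-2 over Mir365-1. These counts are too few to show whether the Mir365 genes differed along with their partners. The tests compare these libraries and not conditions, and they cover counting error only.

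**Figure D3:**
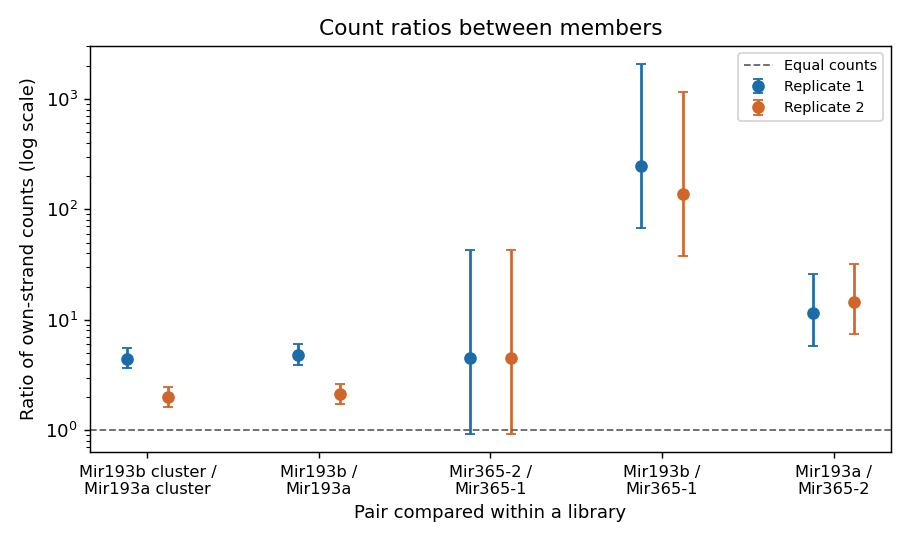
Ratios of own-strand counts within a library on a log axis, for 5 pairs of genes or clusters, in replicate 1 (blue) and replicate 2 (orange), with exact binomial 95% intervals. The dashed line marks equal counts. The ratio of Mir193b to Mir193a lies at 4.83 and 2.13 with intervals that do not overlap, while those of pairs with a Mir365 gene overlap widely.

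Across all detected genes, the libraries were compared with a two-sided conditional exact binomial test on sizes scaled by the trimmed mean of M-values (TMM). A gene was called at an adjusted p under 0.05 and a difference of at least 2-fold. Of the 278 genes, 11.9% were called, 2.52% higher and 9.35% lower in replicate 2. Without the fold minimum, 55.4% were. Mir193b was called, lower in replicate 2 by 2.06-fold (log2 ratio −1.04, counting SE 0.108, adjusted exact p = 4.35e-22). It lay just past the fold minimum, and 31 of the 278 genes had a larger absolute log2 ratio. Mir193a was not called, with a log2 ratio of 0.14 (SE 0.190, adjusted exact p = 0.585). Its ratio of replicate 2 to replicate 1 had an exact 95% interval of 0.843 to 1.44. Mir365-1 and Mir365-2 missed the count minimum and were not tested. With 9 counts in each library, the same ratio for Mir365-2 had an interval of 0.307 to 2.48.

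The call of Mir193b rests on counting error. No replicate is left to measure the spread between animals, since the biological coefficient of variation that edgeR estimated over the detected genes, 0.352, comes from the difference between the same 2 libraries. With it, edgeR's exact test gave Mir193b an unadjusted p of 0.165 and an adjusted p of 1, and called 2.52% of genes. The median absolute log2 ratio over the detected genes was 0.36, against a log2 ratio of −1.04 for Mir193b. Lists of other cell types also had unlike shares in the libraries, in either direction. The smooth muscle microRNAs Mir143 and Mir145a took 20.3% of counts in replicate 1 and 9.73% in replicate 2. Both genes were called lower, as were 9.35% of all genes. The leukocyte list, 4 genes, took 0.315% and 0.246%. Of its genes, 2 (50%) were called lower, against 9.35% of all genes, and Mir155 (log2 ratio 0.14) and Mir150 (0.03) were not called. The liver microRNA Mir122 took 0.0110% and 0.00109%. The 5 epithelial genes took 0.00400% and 0.000742%. Other lists moved the opposite way. The endothelial microRNA Mir126a took 12.1% and 15.7% and was not called (log2 ratio 0.41). All 9 striated muscle genes were higher in replicate 2. Of these, 6 (66.7%) had an unadjusted exact binomial p under 0.05, against 26.3% of all genes in that direction. Only 2 (22.2%) were called, against 2.52% of all genes called higher. The called genes were Mir499 with 615 and 5722 counts and Mir208b with 238 and 1745. The part of these lists in the difference of Mir193b was not tested.

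**Figure D4:**
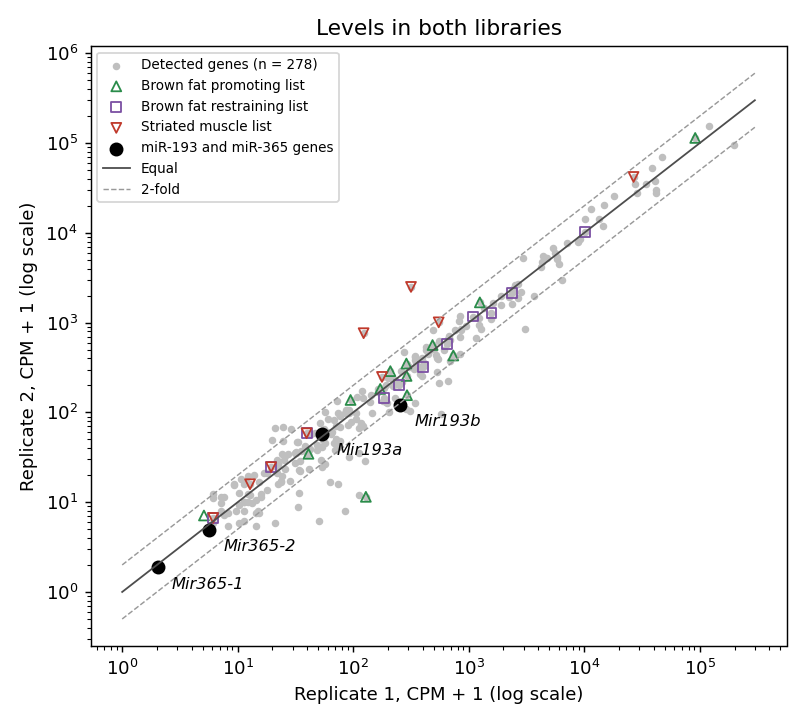
CPM + 1 in replicate 2 against replicate 1, both on log axes. Grey points are the 278 detected genes, coloured symbols all genes of the brown fat and striated muscle lists whether detected or not, black points the miR-193 and miR-365 genes, and dashed lines 2-fold differences. Mir193b lies at the lower dashed line, and Mir193a, Mir365-2 and Mir365-1 lie close to the line of equality.

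The genes closest in level to each detected member were taken by distance in log2(CPM + 1) over the 2 libraries, among 277 candidates. Nearest to Mir193b were Mir204 (distance 0.23, 554 and 247 counts), Mir148a (0.28, 445 and 326 counts) and Mir350 (0.38, 606 and 233 counts). Nearest to Mir193a were Mir539 (distance 0.03, 105 and 130 counts), Mir494 (0.11, 111 and 130 counts) and Mir7-1 (0.16, 114 and 137 counts). The distance takes in the level and the difference between the libraries, so the direction of these neighbours was fixed by the choice and is given as a description.

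The members were set beside 2 lists of microRNAs reported to act on brown fat. The first holds 15 genes reported to promote it, Mir193b and Mir365-1 among them, of which 13 were detected. Mir378a, from an intron of Ppargc1b and reported to expand brown fat, stood far above the rest, with 178103 and 261484 counts. Its counts were 358 and 944 times those of Mir193b. Next came Mir196a-2, reported to induce brown adipocytes in white fat, at 1464 ± 306 CPM, and Mir30b at 582 ± 216 CPM (SD, n = 2 each). By counts, Mir193b was number 8 of the 15 in replicate 1 and number 11 in replicate 2, and Mir365-1 was the lowest in both. Some of the 15, Mir365-1 and Mir196a-2 among them, share a mature arm with another gene. Reads that match several genes are in no gene, so these places rank assigned reads and not microRNA levels. Mir30b was above Mir328 in replicate 1 and below it in replicate 2. Of its 13 detected genes, 2 (15.4%) were called, Mir193b and Mir182, both lower in replicate 2, against 11.9% of all 278 genes. None was called higher by the exact binomial test. An unadjusted exact binomial p under 0.05 in either direction was found for 10 of the 13 (76.9%), against 58.6% of all genes. Higher in replicate 2 at that level were 6 of the 13 (46.2%), against 26.3% of all genes. Under edgeR's exact test, which called 2.52% of all genes, Mir182 alone was called among the 13. The median log2 ratio of the 13 was 0.13, against −0.03 over all 278 genes.

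The second list holds 11 genes reported to restrain brown fat, and all 11 were detected. Mir27b, reported to lower Prdm16 and other brown fat regulators, led it at 10184 ± 96.0 CPM. Mir27a followed at 2256 ± 170 CPM, and Mir93 at 1427 ± 207 CPM (SD, n = 2 each). Mir193b was below each of these in both libraries. The Mir133 genes of this list were lower than Mir193b, with Mir133a-1 at 48.0 ± 13.5, Mir133b at 21.01 ± 3.61 and Mir133a-2 at 5.40 ± 0.385 CPM (SD, n = 2 each). None of the 11 was called by the exact binomial test or by edgeR's exact test, which called 11.9% and 2.52% of all genes. An unadjusted exact binomial p under 0.05 in either direction was found for 8 of the 11 (72.7%) and for 58.6% of all genes. Higher in replicate 2 at that level were 3 of the 11 (27.3%), against 26.3% of all genes. The median log2 ratio of the list was −0.11. The Mir133 genes are also in the striated muscle list, so the lists overlap. They share sequence with each other, and reads that match several of them are in no gene, as with the Mir365 genes.

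Mir365-1 and Mir365-2 belong to 61 genes with 1 mature arm that another microRNA gene also holds and 1 arm of their own. Of these 61, 30 (49.2%) were detected, against 181 of 574 (31.5%) where no arm was shared and 3 of 23 (13.0%) where all arms were. By mean CPM, 32 of the 61 genes lay above Mir365-2 and 38 above Mir365-1, while 15 had no count. The detected genes of this kind reached up to 4985 CPM. Beside Mir365-1, the brown fat lists described above hold 8 genes of this kind, of which 7 were detected, at means from 115 CPM (Mir30c-1) to 1464 CPM (Mir196a-2). The eighth, Mir196a-1, had 8 and 14 counts, close to the 9 and 9 of Mir365-2. Which arm gave the 9 reads of Mir365-2 in each library is not resolved by counts per gene. The classes do not tell whether the shared arm is the main one of a gene. The part of the shared arm in the low counts of the Mir365 genes was not tested.

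No read was counted on the strand opposite to any of the 4 genes in either library. Their unstranded counts therefore equalled the own-strand counts, including at Mir193b and Mir365-1, which lie within Gm15738 on the other strand.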

How the data were processed

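The authors deposited raw read counts for each microRNA gene, for either strand, the own strand and the opposite strand, on mm10 with GENCODE mouse release 21, per the notes deposited beside each library. No aligner or counting tool is named there. Rows that name no gene, 79.3% and 84.1% of reads listed, were left out. All 2202 identifiers matched the annotation. CPM values and shares used own-strand totals, with exact 95% intervals. The libraries were compared with a conditional exact binomial test on TMM-scaled sizes (edgeR 4.0.16), with a prior of 0.5 counts. Benjamini-Hochberg adjustment was over genes with at least 10 counts in each library. The test was run on simulated libraries with counting error only, plain totals and planted changes larger than that of Mir193b. That check does not cover spread beyond counting error or differences near the fold minimum. Alternatives changed the strand, scaling (DESeq2 1.42.0), denominator, count and fold minimum, dispersion, gene length and libraries used. Python 3.11.15 with scipy 1.17.1 and R 4.3.3 were used. Members, gene lists and tests were chosen with earlier results of these data known. Named genes are the members, the 3 nearest in level to each detected member and up to 3 of the most abundant per list. Mir182, Mir208b, Mir328, Mir30c-1, Mir196a-1 and the Mir133 genes were named after their values were seen, and the classes by shared arm were made after the counts were seen. The list names Mir124-1, Mir124-2 and Mir124-3 are Mir124a-1, Mir124a-2 and Mir124a-3 in the annotation, and were looked up under those names afterwards.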

Additional observations from a re-analysis of the deposited data

Results flagged for a closer look

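Reads that aligned to several places enter no gene and are outside the comparisons above. They made up 70.1% of the reads listed in replicate 1 and 72.3% in replicate 2. How many of them carry miR-365-3p was not tested.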

How the results depend on the processing

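No paired analysis was possible because the study has 1 group. Of 74 alternative values for 19 results, 59 kept their direction and side of the threshold or stayed within the spread, and none reversed. The 59 include values that could not come out otherwise and so test nothing. Leaving out 1 of 2 libraries keeps a mean within their SD by construction. Unstranded ratios between members equal the main ones because no read lay on the opposite strand. With the common dispersion, Mir193b was no longer called (log2 ratio −1.04, adjusted p = 1 by edgeR's exact test), while its other alternatives lay between −1.01 and −1.08 and were called. The count of called genes, 33, became 154 without a fold minimum and 7 with the common dispersion. With all reads listed as the denominator, levels fell by construction to 36.0 CPM for Mir193b, 9.99 for Mir193a, 0.791 for Mir365-2 and 0.176 for Mir365-1, and cluster shares to 0.00362% (chromosome 16) and 0.00108% (chromosome 11). With unstranded totals, which are smaller, Mir193a stood at 75.1, Mir365-2 at 5.83 and Mir365-1 at 1.30 CPM, and the chromosome 11 cluster at 0.00809%. Per base of gene, the log2 ratio was 1.81 for Mir365-2 over Mir365-1 and 4.45 for Mir193a over Mir365-2. Without replicate 1, the level of Mir193b was 121 CPM and the log2 cluster ratio 1.01, and without replicate 2 they were 255 CPM and 2.16. Depth limits the Mir365 genes, whose 2 and 9 counts per library leave wide intervals.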
